A study of Homo sapiens with 6 samples.

Results

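The rows described here are 16 of the 59087 rows of a gene count table from HEK293T cells that held reads in wild-type (WT) cells and almost none in either of 2 THUMPD2 knockout lines. A row was taken when it had a raw count of 12 or more in each WT library and of 4 or less in each of the 4 knockout libraries. In all, 23 rows met these limits, out of 10799 rows with 12 or more reads in each WT library. The keratin rows, LBX2-AS1 and the pair PARP9 and DTX3L, 7 rows in all, were left out by the rule, which left 16. The members were thus selected on their raw counts in all 6 libraries, so their loss of reads in the knockout lines is a description and was not tested. The 16 rows hold 3 protein-coding genes, 2 processed pseudogenes, 1 U6 small nuclear RNA pseudogene, 3 antisense RNAs, 4 long intergenic RNAs and 3 rows with clone-based names that could not be placed on the genome.

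HEK293T is a line made from human embryonic kidney cells. Total RNA was sequenced from the knockout lines labelled THUMPD2 KO#1 (KO1) and THUMPD2 KO#2 (KO2) and from WT cells, with 2 libraries in each of the 3 groups. The guides or alleles of the knockouts were not given in the sources used here, both lines were compared with the same WT libraries, and there was 1 WT line. The labels do not say if a group's libraries are separate cultures, so the spread behind each p-value may be technical.

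THUMPD2 is an enzyme that places a methyl group on a guanosine in the catalytic centre of U6 small nuclear RNA, and U6 is the RNA at the heart of the spliceosome, the machine that removes introns. Processed pseudogenes are copies of messenger RNAs written back into the genome, usually without a promoter of their own. Long intergenic and antisense RNAs are transcribed outside of, or across, other genes, often at low levels and in few cell types.

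Library totals were 7539788 and 7414339 reads in KO1, 7926552 and 8391143 reads in KO2, and 7619064 and 8085598 reads in WT. The THUMPD2 row held 3 and 0 reads in KO1, 0 and 1 in KO2, and 1 and 2 in WT, too few to check the labels. The library kit keeps the strand of a transcript, and the strand setting of the counting was not given in the sources used here. GAPDH, an abundant enzyme of glycolysis, had 202 and 181 reads in KO1, 198 and 154 in KO2 and 126 and 150 in WT. The row AC006064.4, on the minus strand over GAPDH, had 136359 and 142186 reads in KO1, 122213 and 126941 in KO2 and 125569 and 133484 in WT. Over all pairs of a coding row and an antisense row that shared at least 100 exonic bases and held at least 1000 WT reads together, the antisense row had more reads in 873 of 1000 pairs (87.3%). The strand in a row's name is therefore not a safe guide to the transcript that was read, so each placed member is given with its nearest genes on the other strand, and what a row did is not taken for what its namesake gene did. Of 11 marker genes listed for HEK293T, 8 had tested rows, with summed counts over the list of 3060 to 3290 in KO1, 5878 to 6247 in KO2 and 4043 to 4315 in WT, and 1 was at 0.

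RNU6-800P is the member closest in kind to the enzyme's substrate, a copy of U6 on chrX:10582817-10582919 (GRCh38, plus strand) inside the body of MID1, a ubiquitin ligase gene of the minus strand. The row RNU6-800P had 0 reads in both KO1 libraries, 1 and 0 in KO2, and 12 and 17 in WT. It was at the lower limit of the rule in WT. With the WT count taken as observed, it was at least 9.20-fold lower in KO1 against a floor of 3 reads over the group. U6 copies are related in sequence, so the assignment of reads among them is uncertain. The row of the U6 gene RNU6-1 had 0 reads in all 6 libraries.

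No other U6 copy was called lower in both lines. Of 1276 rows named RNU6, 969 had no read in any library, 20 met the WT limit and 30 were tested. RNU6-800P aside, 0 of the 29 other tested RNU6 rows were called lower in both lines and 0 higher by edgeR's quasi-likelihood test at an adjusted p under 0.05, against 7.72% lower and 5.79% higher in both lines over all 14184 tested rows. At an unadjusted p under 0.05 in both lines 1 was lower and 0 higher, and DESeq2 called 0 in either direction. MID1, which holds RNU6-800P in its body, had 15 and 6 reads in KO1, 24 and 18 in KO2, and 22 and 35 in WT. Its row was lower in KO1 (log2 fold change -1.35 ± 0.47, SE; adjusted p = 0.0315, edgeR) and was not called in KO2 (-0.56 ± 0.42; adjusted p = 0.352). The KO1 call was lost without KO1 replicate 2 (-0.88), without WT replicate 2 (-1.04) and in DESeq2 (-1.36).

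**Figure D1:**
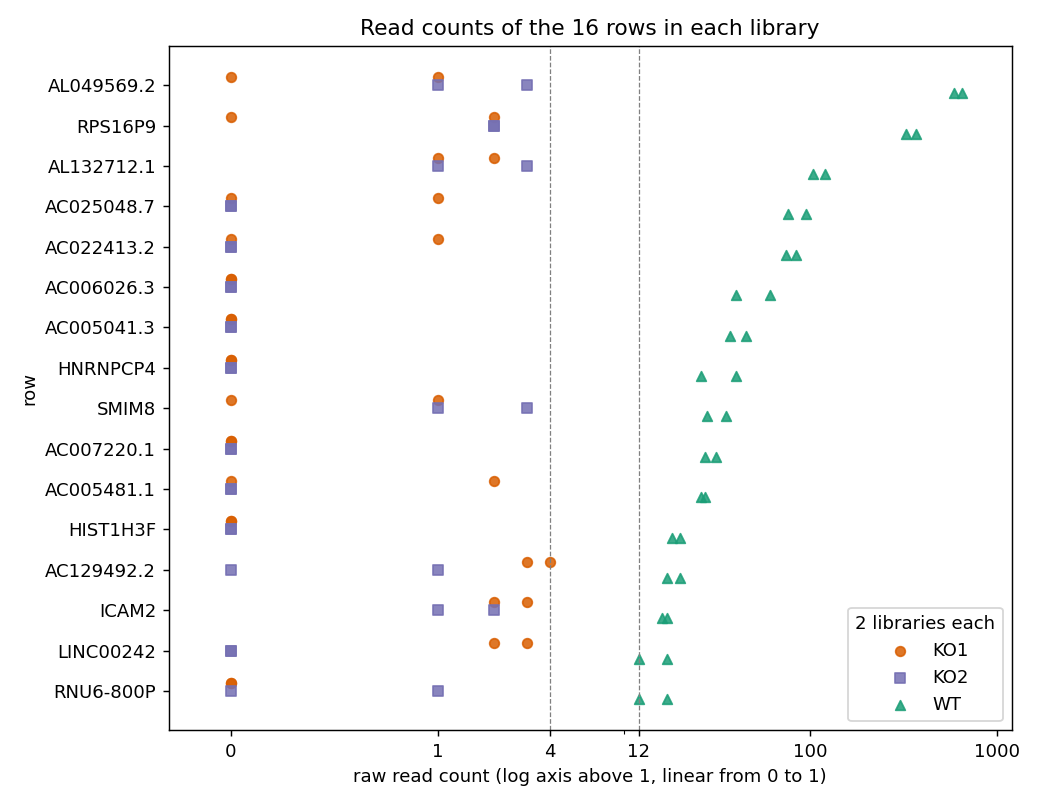
Raw read count (x axis, log above 1 and linear from 0 to 1) of each of the 16 rows (y axis), with circles for KO1, squares for KO2 and triangles for WT, 1 mark per library. The dashed lines are the limits that chose the rows, 4 and 12 reads, so the empty space between them is set by the rule.

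The 16 rows together held 14 and 14 reads in KO1, 9 and 12 reads in KO2, and 1466 and 1611 reads in WT. They held 0 reads in 38 of the 64 knockout values, and 5 of them (AC006026.3, AC005041.3, HNRNPCP4, AC007220.1 and HIST1H3F) had 0 reads in all 4 knockout libraries. Both KO1 libraries were at 0 for 6 rows and both KO2 libraries for 9. The summed knockout reads of a row ranged from 0 to 8, with a median of 1.5. In WT the mean count of a row ranged from 14.5 to 621, with a median of 32.2, against 72 over the 10799 rows with the WT limit. Most had few reads, with 10 under a WT mean of 50 reads and 3 over 100. All 16 passed the filter on low counts. In bulk RNA, fewer cells holding a transcript and less of it per cell cannot be told apart.

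The pseudogene RPS16P9 was the member with the highest WT level per length among those with a known place. It lies on chr19:45332698-45333124 (minus strand) and is a processed copy of RPS16, which encodes a protein of the small ribosomal subunit. It had 2 and 0 reads in KO1, 2 and 2 reads in KO2, and 327 and 368 reads in WT. The WT level in the authors' FPKM was 105 ± 3.40 (SD, n = 2). Relative to library totals the row was 330.9-fold lower in KO1 (95% exact binomial interval 91.3 to 2738, counting error only) and 180.5-fold lower in KO2 (70.2 to 664). The knockout values sat at or near 0 in all 4 libraries, far from both WT values. The rule chose the members on these counts, so such folds and intervals describe the loss and do not test it.

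The row of the parent gene was not called lower. RPS16 had 142 and 106 reads in KO1, 135 and 139 in KO2 and 86 and 127 in WT, and was not called in either line (adjusted p = 0.288 in KO1 and 0.401 in KO2, edgeR). The copy and RPS16 were identical at 379 of 421 aligned bases (90.0%). The first 60 bases of RPS16P9 are shown with the stretch of RPS16 they match, bases 54 to 113 of its transcript, because the capitals, 8 differing bases, are what lets a read be placed on one or the other.
RPS16P9: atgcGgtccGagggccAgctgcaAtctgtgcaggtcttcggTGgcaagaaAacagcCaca
RPS16: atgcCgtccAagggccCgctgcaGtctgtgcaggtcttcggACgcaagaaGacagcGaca

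The second pseudogene, HNRNPCP4, lies on chr16:11242653-11243552 (plus strand) and copies HNRNPC, which encodes an RNA-binding protein that coats nascent transcripts. It had 0 reads in all 4 knockout libraries, and 40 and 26 reads in WT. Its loss was at least 20.9-fold in KO1 and at least 22.9-fold in KO2. Its sequence was identical to HNRNPC at 849 of 900 aligned bases (94.3%), and HNRNPC had 123 and 112 reads in KO1, 137 and 108 in KO2 and 105 and 80 in WT, not called in either line. As with RPS16P9, the copy lost its reads without a call in the parent's row, although counting can divide reads between near copies. With the strand setting of the counting not known, the rows RPS16 and HNRNPC may not measure the parent transcripts. The level of those transcripts was not tested.

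HNRNPCP4 and the long intergenic row AC007220.1 (chr16:11196177-11224969, plus strand) were the only pair within 1 Mb of each other among the 13 placed members, 17684 bases apart on the same strand. AC007220.1 also had 0 reads in all 4 knockout libraries, and had 27 and 31 reads in WT. The next tested row before them, CLEC16A, also of the plus strand and 13988 bases from AC007220.1, had 8 and 10 reads in KO1, 6 and 10 in KO2, and 34 and 28 in WT. CLEC16A encodes an endosomal protein of mitophagy. Its row fell in both lines (-1.69 ± 0.48, adjusted p = 0.00786 in KO1 and -2.08 ± 0.49, adjusted p = 0.00104 in KO2, edgeR). The KO1 call was lost without KO1 replicate 1 (-1.50), without WT replicate 1 (-1.49) and in DESeq2 (-1.70).

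The next tested row on the other side was not lower in either line. RMI2, which encodes a subunit of the BLM helicase complex and shares 260 exonic bases with AC099489.2 of the other strand, starts 6067 bases after HNRNPCP4 and had 60 and 52 reads in KO1, 28 and 34 in KO2, and 16 and 32 in WT. It rose in KO1 (1.30 ± 0.32, adjusted p = 0.00222), a call lost without WT replicate 1 (0.93), and was not called in KO2 (0.24 ± 0.35, adjusted p = 0.668). Of the rows here that the rule did not choose, CLEC16A was thus called lower in both lines and RMI2 in neither. The nearest coding gene of the minus strand is SOCS1, an inhibitor of cytokine signalling, 10853 bases from HNRNPCP4.

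The antisense row AC005041.3 (chr2:74501717-74502365, plus strand) lies within the body of LBX2, a homeobox transcription factor gene of the minus strand (chr2:74497517-74503316), with no shared exonic bases. It had 0 reads in all 4 knockout libraries, and 45 and 37 reads in WT, a loss of at least 26.0-fold in KO1 and at least 28.4-fold in KO2. LBX2-AS1, 230 bases further on the same strand and over 650 exonic bases of LBX2, met the same count limits and was left out by the rule. It had 1 and 4 reads in KO1, 4 and 4 in KO2, and 134 and 176 in WT. TTC31, a tetratricopeptide repeat gene 6831 bases before AC005041.3, also of the plus strand and over 150 exonic bases of CCDC142, had 14 and 14 reads in KO1, 15 and 10 in KO2, and 99 and 133 in WT. The TTC31 row fell in both lines (log2 fold change -2.96 ± 0.30, adjusted p = 1.05e-09 in KO1 and -3.33 ± 0.31, adjusted p = 7.03e-11 in KO2).

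The row named for LBX2 itself was not called lower in either line. It had 251 and 202 reads in KO1, 501 and 629 in KO2, and 286 and 296 in WT. It was not called in KO1 (-0.28 ± 0.12, adjusted p = 0.091) and rose in KO2 (0.82 ± 0.11, adjusted p = 2.57e-07), and the difference between the lines was itself called (KO1 minus KO2 -1.10 ± 0.11, adjusted p = 1.71e-09, edgeR). PCGF1, a Polycomb subunit gene on the minus strand 2678 bases from AC005041.3, had 18 and 18 reads in KO1, 29 and 18 in KO2, and 60 and 55 in WT. The PCGF1 row fell in both lines (-1.59 ± 0.34 in KO1 and -1.42 ± 0.33 in KO2, adjusted p = 0.000477 and 0.000839). Within 50 kb of AC005041.3, 5 of 11 tested rows, LBX2-AS1 included, were lower in both lines, and these lay on both strands. The rows TLX2, CCDC142 and AUP1 were called in neither line, and HTRA2 was lower in KO2 only. LBX2 and MOGS were higher in KO2.

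Within 50 kb of RPS16P9, 1 of 5 tested rows, ERCC2, was lower in both lines. The other rows of the same strand, CKM and PPP1R13L, and the opposite-strand rows KLC3 and MARK4 were called in neither line. KLC3, which encodes a kinesin light chain, is the nearest coding gene of the opposite strand, and by GENCODE v29 it starts 310 bases after RPS16P9 (chr19:45333434-45351520, plus strand), while its RefSeq start window is further on (GRCh38.p14, chr19:45340500-45340799). The KLC3 row had 2732 and 2509 reads in KO1, 2550 and 2815 in KO2 and 2405 and 2561 in WT, and was not called in either line (0.16 ± 0.06, adjusted p = 0.0708 in KO1 and -0.02 ± 0.06, adjusted p = 0.829 in KO2). ERCC2, a helicase gene of transcription and DNA repair on the minus strand, shares 535 exonic bases with KLC3 at its other end. The ERCC2 row had 225 and 205 reads in KO1, 211 and 232 in KO2, and 865 and 857 in WT, and fell in both lines (-1.92 ± 0.10, adjusted p = 2.13e-17 in KO1 and -2.09 ± 0.10, adjusted p = 1.08e-18 in KO2). The rule fixed the loss of RPS16P9, so ERCC2 is the one minus-strand row at KLC3 whose fall was tested.

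**Figure D2:**
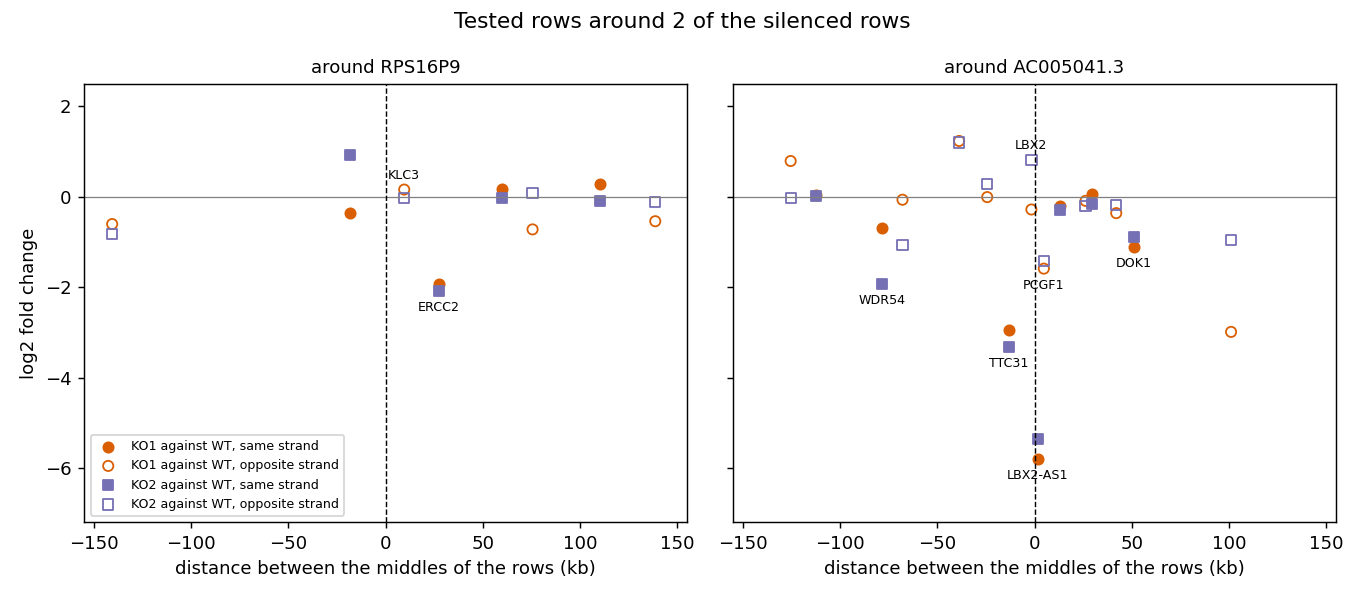
Log2 fold change (y axis) of each tested row within 150 kb of RPS16P9 (left panel) and AC005041.3 (right panel) against the distance between the middles of the rows (x axis, kb), with circles for KO1 and squares for KO2 against WT, filled for the strand of the silenced row and open for the opposite strand. ERCC2 lies near -2 in both lines while KLC3 lies near 0, and LBX2-AS1 and TTC31 lie far below LBX2.

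AC006026.3 (chr7:23680195-23680786, minus strand) is an antisense row over the first bases of FAM221A, a coding gene of the plus strand (chr7:23680130-23703249), with 75 exonic bases shared. It had 0 reads in all 4 knockout libraries, and 40 and 61 reads in WT, a loss of at least 32.1-fold in KO1 and at least 35.0-fold in KO2. The FAM221A row had 0 reads in all 4 knockout libraries too, and 5 and 12 reads in WT, too few to be tested. The rule fixed the order of the groups for AC006026.3. How many rows with so few reads as FAM221A look like this was not counted, so its counts are a description only. The start region of FAM221A is shown because AC006026.3 reaches into it (RefSeq, GRCh38.p14, chr7:23679949-23680248, plus strand), with the 54 shared bases in capitals.
FAM221A start region: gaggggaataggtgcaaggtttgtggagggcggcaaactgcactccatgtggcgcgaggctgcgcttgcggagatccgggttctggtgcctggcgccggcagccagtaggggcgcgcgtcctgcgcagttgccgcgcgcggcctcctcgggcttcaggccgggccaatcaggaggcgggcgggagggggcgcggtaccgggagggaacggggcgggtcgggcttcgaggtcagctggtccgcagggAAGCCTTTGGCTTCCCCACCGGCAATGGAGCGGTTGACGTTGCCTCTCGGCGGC
It holds 33 CpG pairs, against a median of 14 over 35116 promoter windows of the same length.

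The last antisense row, AC005481.1 (chr7:157614023-157618765, plus strand), lies in the body of PTPRN2, a secretory-vesicle phosphatase gene, with no shared exonic bases. It had 0 and 2 reads in KO1, 0 and 0 in KO2, and 26 and 27 in WT. PTPRN2's own row held 0 and 1 reads in KO1, 1 and 0 in KO2 and 0 and 0 in WT. A read-bearing antisense row thus stood in a gene whose own row was close to empty in every group.

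Of the coding members, ICAM2 encodes an adhesion molecule known from endothelium and platelets. Its row (chr17:64002594-64020634, minus strand) had 3 and 2 reads in KO1, 1 and 2 in KO2, and 17 and 16 in WT. It was 6.28-fold lower in KO1 (95% interval 2.44 to 20.6) and 11.4-fold lower in KO2 (3.59 to 58.2). The row shares 869 exonic bases with PRR29, a proline-rich protein gene of the plus strand (chr17:63998351-64004304), whose own row had 2 and 0 reads in KO1, 3 and 1 in KO2, and 5 and 0 in WT. PRR29-AS1, another minus-strand row over 694 exonic bases of PRR29, had 0 reads in all 4 knockout libraries and 5 and 12 in WT, too few to be tested. The rule fixed the order of the groups for ICAM2. PRR29-AS1 was outside the rule, and its counts did not overlap between knockout and WT. How many rows with so few reads look like this was not counted, so its counts are a description only. Of the endothelial markers listed (PECAM1, CDH5, KDR and VWF), 1 was tested and it was not called in both lines, with summed counts of 10 to 17 in KO1, 14 to 20 in KO2 and 10 to 19 in WT.

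HIST1H3F is one of the replication-dependent histone H3 genes (chr6:26250195-26250605, minus strand). Its row had 0 reads in all 4 knockout libraries, and 18 and 20 reads in WT. Histone H3 genes are closely similar in sequence, so the assignment of its reads is uncertain. No neighbour within 500 kb, where the histone cluster lies, was called in both lines among 11 tested rows by edgeR, with 1 lower and 0 higher at an unadjusted p under 0.05 and 0 by DESeq2. Its start region (RefSeq entry H3C7, GRCh38.p14, chr6:26250586-26250885, minus strand) is shown with matches to CCAAT and TATAAA in capitals, the motifs being read on both strands.
HIST1H3F start region: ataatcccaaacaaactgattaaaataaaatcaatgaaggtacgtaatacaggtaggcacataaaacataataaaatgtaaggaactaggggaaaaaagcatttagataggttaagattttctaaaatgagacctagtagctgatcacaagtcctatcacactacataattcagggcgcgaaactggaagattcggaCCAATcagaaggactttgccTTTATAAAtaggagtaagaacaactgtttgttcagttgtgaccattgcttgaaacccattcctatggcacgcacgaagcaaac
TATAAA is found in 11.5% and CCAAT in 34.6% of the 35116 windows.

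SMIM8 encodes a small membrane protein (chr6:87322583-87399749, plus strand) and its row had 0 and 1 reads in KO1, 3 and 1 in KO2, and 28 and 35 in WT. It was 59.99-fold lower in KO1 (95% interval 10.4 to 2407) and 16.4-fold lower in KO2 (6.08 to 61.9). It shares 105 exonic bases with GJB7, a connexin gene of the minus strand, whose row had 147 and 140 reads in KO1, 137 and 231 in KO2, and 188 and 198 in WT and was not called in either line (adjusted p = 0.154 and 0.395). The SMIM8 start region (RefSeq, GRCh38.p14, chr6:87322338-87322637, plus strand) is shown because it is of another kind than that of HIST1H3F, with GGGCGG in capitals.
SMIM8 start region: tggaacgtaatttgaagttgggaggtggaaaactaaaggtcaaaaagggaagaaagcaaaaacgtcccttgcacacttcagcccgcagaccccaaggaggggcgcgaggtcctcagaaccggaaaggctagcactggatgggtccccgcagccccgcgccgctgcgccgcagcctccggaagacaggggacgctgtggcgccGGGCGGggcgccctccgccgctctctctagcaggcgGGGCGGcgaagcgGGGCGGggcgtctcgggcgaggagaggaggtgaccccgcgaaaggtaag
It holds 30 CpG pairs and 3 matches to GGGCGG, against 6 CpG pairs and no such match in HIST1H3F, and GGGCGG is found in 44.95% of the windows. These 2 members and LINC00242 were the 3 of 16 with a RefSeq promoter entry. A match is a description of letters only.

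Of the remaining long intergenic rows, AL132712.1 (chr14:103854366-103880111, minus strand) had the most reads, with 2 and 1 reads in KO1, 1 and 3 in KO2, and 119 and 103 in WT. Relative to library totals it was 70.5-fold lower in KO1 (95% interval 23.8 to 344.3) and 57.7-fold lower in KO2 (22.2 to 213.5). It shares 37 exonic bases with LINC00637, whose row had 0 and 0 reads in KO1, 2 and 0 in KO2, and 0 and 2 in WT. AC129492.2 (chr17:8056225-8057621, minus strand), 7091 bases from the lipoxygenase gene ALOX15B, had 3 and 4 reads in KO1, 0 and 1 in KO2, and 17 and 20 in WT. LINC00242 (chr6:169788790-169799549, minus strand), over 275 exonic bases of LINC00574 and 7206 bases from the membrane protein gene ERMARD, had 3 and 2 reads in KO1, 0 and 0 in KO2, and 12 and 17 in WT. In both of these rows each KO1 library kept a few reads.

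Before AC129492.2 on the same strand lies AC104581.3, 39847 bases away, which covers 1037 exonic bases of the guanylate cyclase gene GUCY2D. It had 1 and 4 reads in KO1, 15 and 23 in KO2, and 24 and 28 in WT. It was lower in KO1 (-3.24 ± 0.63, adjusted p = 0.000136) and not called in KO2 (-0.59 ± 0.45, adjusted p = 0.366), and the difference between the lines was called (KO1 minus KO2 -2.65 ± 0.66, adjusted p = 0.00277, edgeR).

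The 3 rows that could not be placed included the most abundant member. AL049569.2 had 1 and 0 reads in KO1, 1 and 3 in KO2, and 588 and 654 in WT. It was 1183-fold lower in KO1 (95% interval 212 to 46749) and 322.6-fold lower in KO2 (125.7 to 1186), and its WT level of 306 ± 7.39 FPKM (SD, n = 2), with a gene size of 261 bases in the authors' table, was the highest per length among the 13 members in that table. AC025048.7 had 0 and 1 reads in KO1, 0 and 0 in KO2, and 76 and 95 in WT. AC022413.2 had 0 and 1 reads in KO1, 0 and 0 in KO2, and 74 and 84 in WT. Rows that share a clone name with these held reads in the knockout lines, and AL049569.1, for example, had 1243 and 1377 reads in KO1, 1306 and 1275 in KO2, and 1331 and 1483 in WT. A shared clone name was not taken as a position.

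By kind, the members differed in make-up from the 10799 rows with the WT limit. Protein-coding rows were 3 of 16 (18.8%), against 63.4% of those rows, and long intergenic RNAs were 4 of 16 (25%), against 3.92%. Antisense rows made up 18.8% of the members and 20.6% of those rows, pseudogenes 12.5% and 5.32%, small nuclear RNAs 6.25% and 0.250%, and rows not placed 18.8% and 2.94%. A gene on the opposite strand with at least 100 shared exonic bases lay over 3 of 16 members, against 51.3% of those rows, and an overlap of any kind over 8 of 16 (50%), against 74.5%. Rows not placed were counted as having no overlap, which lowers the share of the members more than that of the 10799 rows. Overlap shares among placed rows alone were not counted. These shares were not tested, since the counts chose the rows and the members had a lower median count. The 7 rows left out by the rule are missing from the 16 but not from the 10799, so the shares also depend on that choice. Those 7 include keratin rows, PARP9 and DTX3L, and LBX2-AS1, an antisense row over exons of LBX2. Shares with the 7 put back were not counted.

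**Figure D3:**
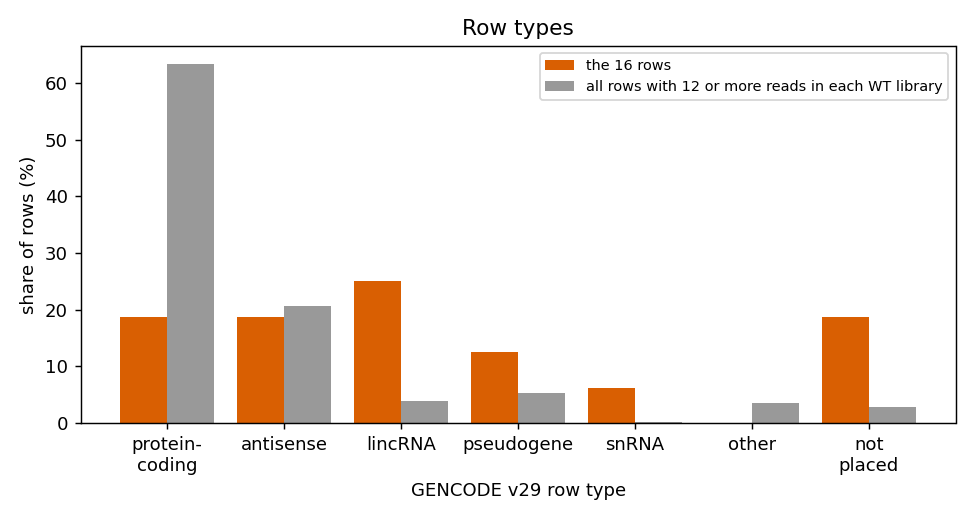
Share of rows (y axis, %) by GENCODE v29 type (x axis) for the 16 members (orange) and for all 10799 rows with 12 or more reads in each WT library (grey). Long intergenic RNAs were 25% of the members and 3.92% of the other set, and coding rows 18.8% and 63.4%. The 7 rows left out by the rule are missing from the 16 but not from the 10799.

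Members close to the limits on the inner side were AC129492.2 and LINC00242, given above, and RNU6-800P. On the outer side, 13 rows missed the rule by 1 or 2 reads in 1 library. FAM86GP had 5 and 0 reads in KO1, 0 and 0 in KO2, and 22 and 20 in WT. PLK5 had 2 and 3 reads in KO1, 2 and 2 in KO2, and 11 and 21 in WT. AL355355.2 had 1 and 0 reads in KO1, 1 and 0 in KO2, and 11 and 13 in WT. Rows on the 2 sides of the limits differ by a few reads. The same limits with the groups exchanged, 12 or more reads in each knockout library and 4 or less in each WT library, were met by 40 rows.

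The genes on the opposite strand were next read as a set. For the members, 13 such genes were taken, by overlap or as the nearest coding gene within 10 kb, and 4 of their own rows were tested (KLC3, LBX2, GJB7 and MID1). None of the 4 was called lower in both lines, nor higher, by edgeR. KO1 gave 1 lower call, MID1, and KO2 gave 1 higher call, LBX2. The other 9 rows held between 0 and 12 reads in any library. Of other rows over the exons of these genes, 2 were tested, ERCC2 and LBX2-AS1, and both were called lower in both lines, LBX2-AS1 being a row that met the count limits itself.

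The rows around the 13 placed members, which took no part in the rule except LBX2-AS1, were tested. Over all 14184 tested rows, KO1 had 13.3% called lower and 10.4% higher, KO2 had 15.4% lower and 13.6% higher, and 7.72% were called lower in both lines and 5.79% higher in both. Within 500 kb of a member 164 rows were tested, of which 19 (11.6%) were lower in both lines and 3 (1.83%) were higher in both, or 18 of 163 lower without LBX2-AS1. Within 50 kb, a distance chosen after the values were seen, it was 7 of 25 rows (28%), LBX2-AS1 included. There 0 were higher, with 1 higher at an unadjusted p under 0.05 and 0 higher in DESeq2. From 50 to 100 kb 1 of 13 (7.69%) were lower in both lines, and from 100 to 250 kb 5 of 48 (10.4%). From 250 to 500 kb it was 6 of 78 (7.69%) and from 500 kb to 1 Mb 11 of 85 (12.9%). Beyond 50 kb the share thus ran from 7.69% to 12.9%, against 7.72% of all rows.

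Of the 7 rows within 50 kb, 5 lay at AC005041.3 (LBX2-AS1, PCGF1, TTC31, LOXL3 and DOK1), and the other 2 were ERCC2 and CLEC16A. Without the neighbours of AC005041.3 the count was 2 of 14 (14.3%) within 50 kb and 13 of 138 (9.42%) within 500 kb. By strand, also chosen after the values were seen, rows on the member's strand within 50 kb were lower in both lines in 5 of 13 cases (38.5%), against 2 of 12 (16.7%) on the opposite strand. Within 500 kb the counts were 13 of 77 (16.9%) and 6 of 87 (6.90%). At both distances the counts on the member's strand include LBX2-AS1, whose fall was fixed because it met the count limits itself. Shares by strand without it were not counted. Neighbours of 1 locus share their position and are not independent of each other, and the differences between strands and distances were not tested.

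**Figure D4:**
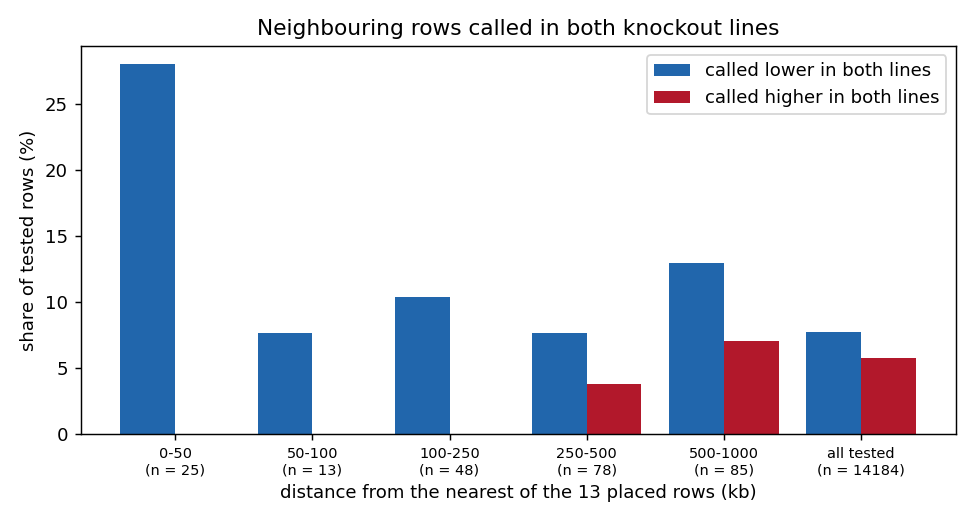
Share of tested rows (y axis, %) called lower (blue) or higher (red) in both knockout lines, by distance to the nearest of the 13 placed members (x axis, kb, with the number of rows), beside all 14184 tested rows. The nearest bin stands at 28% lower and the others between 7.69% and 12.9%. Of the 7 rows in the nearest bin, 5 belong to the AC005041.3 locus, among them LBX2-AS1, which met the count limits itself.

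Beyond the rows named above, the neighbours with the greatest loss in both lines were WDR54, EML2, DOK1, EML2-AS1 and AC046185.2. WDR54, a WD-repeat gene 75962 bases from AC005041.3, had 128 and 115 reads in KO1, 52 and 67 in KO2, and 191 and 222 in WT, and fell in both lines (-0.68 ± 0.17 in KO1 and -1.93 ± 0.19 in KO2, adjusted p = 0.00238 and 1.91e-10). EML2, a microtubule-associated protein gene 273870 bases from RPS16P9, had 71 and 75 reads in KO1, 102 and 142 in KO2, and 227 and 224 in WT (-1.55 ± 0.18 and -1.02 ± 0.17, adjusted p = 2.27e-08 and 1.04e-05). DOK1, a docking protein gene of tyrosine kinase signalling over 216 exonic bases of LOXL3, had 85 and 88 reads in KO1, 118 and 117 in KO2, and 196 and 200 in WT (-1.11 ± 0.18 and -0.89 ± 0.17, adjusted p = 5.11e-06 and 7.27e-05). These 3 rows were lower in every knockout library than in both WT libraries, which their choice by greatest loss favours.

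AC046185.2, 391410 bases from ICAM2, had 147 and 170 reads in KO1, 150 and 142 in KO2, and 269 and 295 in WT (-0.75 ± 0.14 and -1.08 ± 0.15, adjusted p = 0.000122 and 2.3e-07). EML2-AS1, which overlaps EML2, had 33 and 16 reads in KO1, 23 and 38 in KO2, and 49 and 55 in WT (-1.01 ± 0.34 and -0.90 ± 0.32, adjusted p = 0.0251 and 0.0326). Its calls were lost in DESeq2 (-1.01 and -0.92), in KO1 without KO1 replicate 2 (-0.62) or WT replicate 2 (-0.98), and in KO2 without KO2 replicate 1 (-0.61), WT replicate 1 (-0.94) or WT replicate 2 (-0.87).

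The neighbours that rose in both lines lay over 300 kb away, and CKB and AC011481.2 are given here. CKB, the brain-type creatine kinase gene, had 575 and 516 reads in KO1, 685 and 700 in KO2, and 408 and 460 in WT (0.41 ± 0.09 and 0.54 ± 0.09, adjusted p = 0.000629 and 7.22e-06). AC011481.2, over NECTIN2, had 939 and 992 reads in KO1, 1534 and 1644 in KO2, and 858 and 885 in WT (0.23 ± 0.08 and 0.73 ± 0.07, adjusted p = 0.0247 and 5.33e-10). For AC011481.2 the KO1 call was lost without KO1 replicate 2 (0.14), without WT replicate 1 (0.26), without WT replicate 2 (0.20) and in DESeq2 (0.23).

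**Figure D5:**
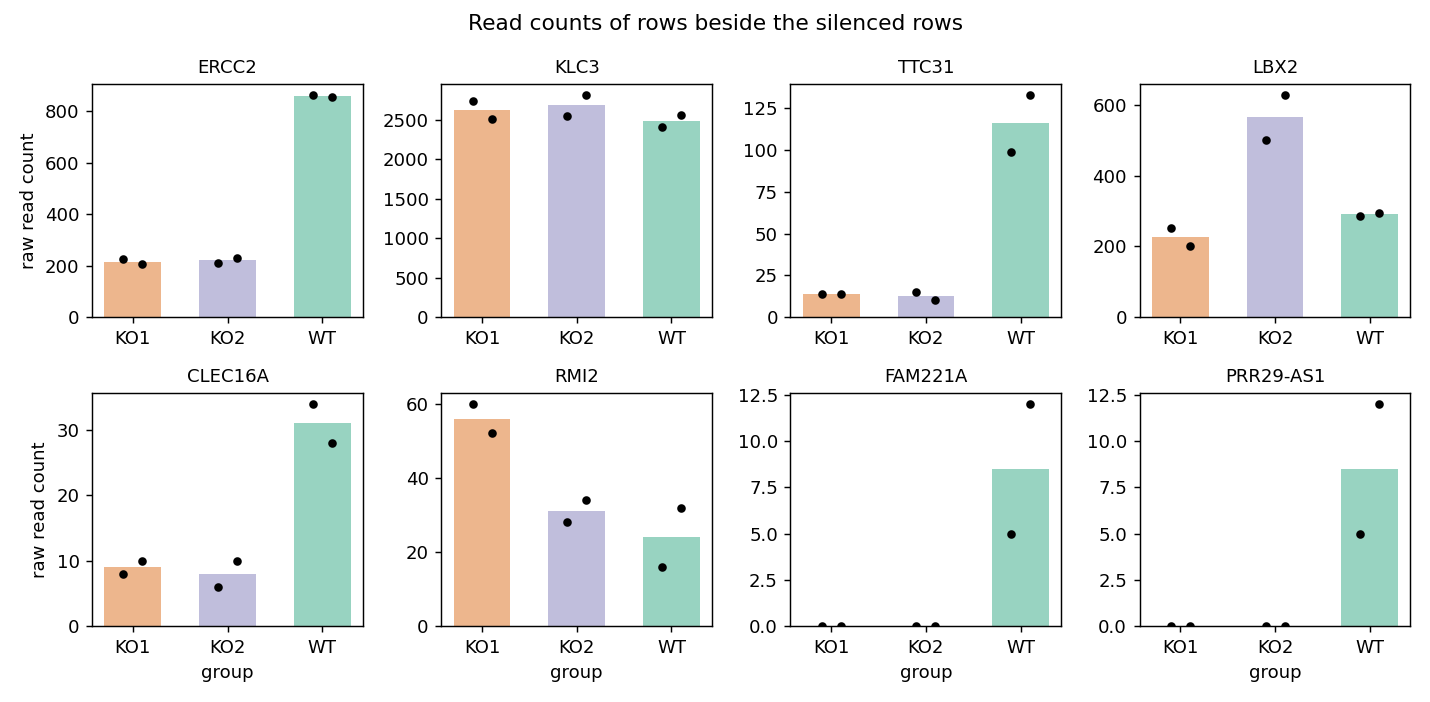
Raw read count (y axis, each panel with its own scale from 0) of 8 rows beside members in KO1, KO2 and WT (x axis), with a point per library and a bar at the mean of 2 libraries. ERCC2, TTC31 and CLEC16A stand lower in both knockout lines, KLC3 is level, LBX2 is high in KO2, RMI2 is high in KO1, and FAM221A and PRR29-AS1 are at 0 in all 4 knockout libraries. FAM221A and PRR29-AS1 had too few reads to be tested.

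The nearest tested row on each side of a member gave 24 distinct rows, at distances of 230 to 1012546 bases with a median of 61700. The tested rows that overlap a member (LBX2, GJB7 and MID1) are not among the 24 and are given above. Of these, 3 were lower in both lines (TTC31, CLEC16A and LBX2-AS1, which met the count limits itself), against 7.72% of all tested rows. None was higher in both, and 4 were called between KO1 and KO2, against 20.4% of all tested rows. At an unadjusted p under 0.05, 4 were lower and 0 higher in both lines, and DESeq2 called 2 lower and 0 higher. PPP1R13B, 6776 bases before AL132712.1, was lower in KO1 (-0.26), a call lost without KO1 replicate 2 (-0.22), without WT replicate 1 (-0.18) and in DESeq2 (-0.26). MPP6, a scaffold protein gene 892482 bases after AC006026.3, was lower in KO2 (-1.34), a call lost without KO2 replicate 2 (-0.77), without WT replicate 1 (-1.42) or 2 (-1.25), without the filter on low counts (-1.35) and in DESeq2 (-1.36).

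No member belongs to the gene lists that were read beside them. Of 26 tested rows named for the silencing machinery of chromatin, 0 were lower and 2 were higher in both lines, with 0 lower at an unadjusted p under 0.05 in both lines and 0 lower in DESeq2. Over all tested rows 7.72% were lower and 5.79% higher in both lines, so 2 of 26 is near the share of all rows. TRIM28, a corepressor of zinc-finger repressors, had 273 and 261 reads in KO1, 263 and 282 in KO2, and 144 and 166 in WT, and rose in both lines (0.87 ± 0.13 and 0.68 ± 0.13, adjusted p = 4.16e-06 and 0.000124). DNMT1, the maintenance DNA methyltransferase, had 90 and 57 reads in KO1, 81 and 92 in KO2, and 38 and 51 in WT (0.80 ± 0.25 and 0.82 ± 0.25, adjusted p = 0.0178 and 0.0103). The DNMT1 calls were lost without WT replicate 1 (0.65 and 0.67) and in DESeq2 (0.81 and 0.82), in KO1 without KO1 replicate 1 (0.48) and in KO2 without KO2 replicate 2 (0.77). Of 7 rows on the opposite strand over genes of this list, EHMT2-AS1 was higher in both lines (0.39 ± 0.06 and 0.27 ± 0.06) and DCLRE1C, over SUV39H2, lower (-0.84 ± 0.07 and -0.47 ± 0.07).

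Of 9 rows over HEK293T markers AC110015.1, over CDH2, was higher in both lines (1.505 in KO1 and 1.484 in KO2) and AC243773.1, over LHX1, lower (-4.54 and -2.20). The AC243773.1 call in KO2 was lost without KO2 replicate 1 (-1.25), without WT replicate 1 (-1.95) or 2 (-2.43), with a replicate block (-2.27) and in DESeq2 (-2.28). Of 31 tested HOX rows, HOXA11 (-1.43 and -2.31) and HOXC11 (-1.53 and -3.60) were lower in both lines and HOXA5 was higher (1.44 and 0.90), counts not above the 7.72% and 5.79% of all rows. The HOXA5 call in KO2 was lost without KO2 replicate 2 (0.88), without WT replicate 2 (0.85) and in DESeq2 (0.89). Over HOX genes, HOXA11-AS (-0.62 and -0.57) and HOXB-AS1 (-0.19 and -0.86) were lower, and the KO1 call of HOXB-AS1 was lost in 7 of the alternatives (-0.20 to -0.10). The 1 tested clustered protocadherin row, PCDHGC3, was higher in both lines (1.83 and 2.21), and its KO1 call was lost without any 1 of the KO1 or WT libraries (1.63 to 2.05) and in DESeq2 (1.87), and its KO2 call without KO2 replicate 2 (1.96).

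None of the 3 tested MAGE, GAGE, PAGE and XAGE rows was called in both lines by edgeR or DESeq2, nor passed an unadjusted p of 0.05 in both. Of the marker rows of proximal tubule, podocyte, fibroblast, leukocyte, endothelium and keratinocyte, 0, 1, 0, 4, 1 and 1 were tested and 0 were called in both lines by edgeR or DESeq2, with 1 leukocyte row lower at an unadjusted p under 0.05.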

How the data were processed

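The authors deposited whole-number read counts for 59087 gene symbols in 6 libraries without normalization. The authors also deposited FPKM, here used only to describe levels per length. Reads were trimmed, aligned and counted by the authors; the submitters' processing notes list HTSeq 0.6.1p1, STAR 2.7.1a, Trim Galore and limma, and name builds hg38 and GRCh38.p6. Neither the annotation release nor the counting's strand option was found in them.

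Rows were placed by symbol on GENCODE v29 (GRCh38): 56195 directly, 245 through a current symbol, 219 matched several genes and 2428 none. All tests ran on the counts, by the quasi-likelihood method of edgeR 4.0.16 in R 4.3.3 (TMM, filterByExpr, 14184 rows, 1 fit of 3 groups, 3 residual and 31.9 prior degrees of freedom, biological coefficient of variation 7.57%). Adjusted p is Benjamini-Hochberg over all tested rows, and a call needs one under 0.05. Errors are SE of the log2 fold change. Fold differences of members use library totals, with exact binomial 95% intervals; a group at 0 was set to a floor of 3 reads over its libraries. The intervals cover counting error only. A fold against the floor, given as "at least", takes the WT count as observed and leaves out its counting error, so it is not an interval limit. Intervals and floor folds use the counts that chose the members, so an interval above 1 was favoured by the choice and is no test. DESeq2 1.42.0 was an alternative, with RLE scaling, no filter, a replicate block, and each library left out. The model was tested on simulated data.

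The members and lists were chosen with earlier results of these data known. Named rows were all members, their opposite-strand genes and parents, the nearest tested rows, up to 10 neighbours per direction called in both lines, and called list members. RefSeq promoter sequences are from GRCh38.p14. Some named rows and sequences are not reported here.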

Additional observations from a re-analysis of the deposited data

Results flagged for a closer look

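Within 500 kb of a member, 38 of 164 tested rows (23.2%) were called between KO1 and KO2 by edgeR at an adjusted p under 0.05, against 20.4% of all tested rows. Given here are 7 such rows from among the named neighbours and nearest tested rows, of which MPP6 lies 892482 bases from its member. WDR54 (KO1 minus KO2 1.24 on the log2 scale) was lower in both lines, more so in KO2. AC011481.2 (-0.502) was higher in both lines, more so in KO2. KLC3 (0.181) was not called against WT in either line. LBX2 (-1.10) was called higher in KO2 and not called in KO1. MPP6 (1.70) was called lower in KO2 and not called in KO1. RMI2 (1.06) was called higher in KO1 and not called in KO2. AC104581.3 (-2.65) was called lower in KO1 and not called in KO2.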

How the results depend on the processing

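With RLE scaling, with no filter on low counts and with DESeq2, every count of calls kept within 1.5 times of its value except the higher calls in DESeq2, which were 964 in KO1, 1176 in KO2 and 526 in both lines; the cause was not tested. Counts over neighbours moved with the distance by construction, to 0 higher within 250 kb, to 30 lower and 9 higher within 1 Mb, and to 7 lower and 0 higher within 50 kb. With each library left out, neighbours within 500 kb called in both lines ranged from 12 to 17 lower (12 without WT replicate 1) and from 2 to 5 higher (5 without KO1 replicate 1). The limits set the number of members, which was 5 with no read allowed in a knockout library and 10 with at most 2, and with each library left out it ranged from 18 to 36 (33 without WT replicate 1 and 36 without WT replicate 2). Members over an opposite-strand gene were 5 with 1 shared exonic base and 8 with any overlap, against 3 with 100 bases. Over named rows, 926 values under the alternatives kept their side of the threshold, 7 passed it newly, 58 no longer passed it and 0 of those called changed sign.

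Replicate numbers are shared between groups in the labels. The deviations of same-numbered libraries did not correlate (r = -0.0286 for KO1 with WT, -0.0206 for KO2 with WT and -0.0206 for KO1 with KO2). No pairing by number was thus seen, but with 2 libraries per group this check cannot exclude it. With a replicate block, 1789 rows were lower in KO1, 2111 in KO2 and 1048 in both, against 1881, 2184 and 1095 without it, and 19 neighbours were lower and 4 higher in both lines. Depth limits the members, since 10 of 16 had a WT mean under 50 reads.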
